A study of Mus musculus with 15 samples.

Results

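The DNA replication machinery was described here across whole mouse embryos with and without Apela, as 42 listed genes that encode the factors that load, open, prime, copy and seal DNA. Genes were taken by their GENCODE symbol, and the only filter on values was a mean of 10 or more normalized counts over the 15 libraries. All 42 genes passed it, out of 45232 genes in the table and 16430 that passed the same filter. The list holds 5 subunits of the origin recognition complex, 3 licensing factors, the 6 subunits of the MCM2-7 helicase, 8 genes of helicase activation, 6 genes of the sliding clamp and its loader, 4 of polymerase alpha-primase, 5 of polymerases delta and epsilon, 3 of replication protein A and 2 of Okazaki fragment maturation.

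Each library was polyadenylated RNA of 1 whole embryo at embryonic day 7.5, with extraembryonic tissue kept, from a mixed C57Bl6 and CD-1 background. There were 6 embryos of the genotype Apela KO NEO-IN (numbers 1 to 6), 6 of the genotype Apela KO NEO-OUT (numbers 7 to 12) and 3 wild-type embryos (numbers 1 to 3). Apela encodes a small secreted peptide that binds the apelin receptor, and both knockout genotypes came from crosses of homozygous knockout parents, so the parents also lacked the gene. What sets the NEO-IN allele apart from the NEO-OUT allele is not spelled out in the labels, which also give no sex, litter or batch for the embryos.

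Replication starts when the origin recognition complex, with Cdc6 and Cdt1, loads the ring-shaped MCM2-7 helicase onto DNA, and geminin blocks a repeat of that step within the same cell cycle. The Cdc7-Dbf4 kinase, Cdc45 and the GINS complex turn the loaded ring into a moving helicase, after which polymerase alpha-primase lays primers, polymerases epsilon and delta extend the strands on the Pcna clamp, and Fen1 and Lig1 join the Okazaki fragments. Many of these genes are known targets of E2F transcription factors, which act at the entry to S phase. The epiblast of the gastrulating mouse embryo divides very fast.

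Promoter sequences are shown first for genes that differed between the knockout strains, because they show how unlike the starts of these genes are. They are RefSeq sequences on GRCm38.p6, 250 bases before to 50 bases after a start, taken for the start nearest the gene's GENCODE start, and 34 of the 42 genes had an entry. Named only are Gmnn, Mcm4, Gins1, Gins2, Gins4, Rfc2, Prim2 and Pole. Capitals mark the letters TTTCCCGC, TTTCGCGC, TTTGCCGC or TTTGGCGC on either strand, which are forms of the E2F motif. Mcm3 lies at chr1:20820263-20820562 on the minus strand, Pold1 at chr7:44548766-44549065 on the minus strand and Lig1 at chr7:13276925-13277224 on the plus strand.

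Mcm3: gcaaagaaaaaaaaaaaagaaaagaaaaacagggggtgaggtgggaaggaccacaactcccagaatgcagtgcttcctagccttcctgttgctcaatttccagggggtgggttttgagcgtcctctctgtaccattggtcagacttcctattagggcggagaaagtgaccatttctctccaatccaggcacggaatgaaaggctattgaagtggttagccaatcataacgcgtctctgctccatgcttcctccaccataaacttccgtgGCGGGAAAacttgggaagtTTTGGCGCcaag

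Pold1: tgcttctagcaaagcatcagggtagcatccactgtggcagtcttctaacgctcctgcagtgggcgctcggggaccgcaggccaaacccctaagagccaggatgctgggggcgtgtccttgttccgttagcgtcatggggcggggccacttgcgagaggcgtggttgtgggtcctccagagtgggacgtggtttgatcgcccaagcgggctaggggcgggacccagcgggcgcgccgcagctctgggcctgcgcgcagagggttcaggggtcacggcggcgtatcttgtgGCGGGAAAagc

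Lig1: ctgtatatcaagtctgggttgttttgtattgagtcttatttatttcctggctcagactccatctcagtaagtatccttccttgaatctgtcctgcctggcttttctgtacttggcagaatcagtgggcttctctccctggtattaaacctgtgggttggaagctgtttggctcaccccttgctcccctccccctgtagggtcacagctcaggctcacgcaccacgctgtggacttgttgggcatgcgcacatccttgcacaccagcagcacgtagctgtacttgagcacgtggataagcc

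The Mcm3 promoter held a match at base 20 and another at base 39 after the start, Pold1 had 1 match at base 40, and the Lig1 promoter shown held none, although another RefSeq start of Lig1 had one. In Mcm5 and Mcm6 matches on opposite strands overlapped, and their windows are shown because the same 12 bases (capitals) appear in both genes, on opposite strands. The Mcm5 window is chr8:75109341-75109382 on the plus strand, with the run 153 bases before the start, and the Mcm6 window is chr1:128359789-128359830 on the minus strand, 110 bases before it.

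Mcm5: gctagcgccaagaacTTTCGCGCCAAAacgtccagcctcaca

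Mcm6: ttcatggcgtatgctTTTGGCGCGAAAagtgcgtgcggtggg

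In the whole promoter table only 4 genes held this run, of which Mcm5 and Mcm6 are on the list; these windows were chosen after the values were seen. Over all starts of a gene, 15 of the 34 replication genes (44.1%) held at least 1 E2F match, against 704 of 27025 genes in the table (2.61%) and 328 of 5904 genes in the same range of RNA level (5.56%). Among the starts nearest the GENCODE start, 14 genes held a match and 5 of them (Mcm3, Mcm5, Mcm6, Mcm7 and Rfc3) held several. The CCAAT box (CCAAT) was present in 58.8% of the replication genes, 41.1% of all genes and 43.1% of genes in the same level range. The CHR element (TTTGAA) was present in 20.6%, 20.2% and 13.7% of these sets, and the Sp1 box (GGGCGG) in 76.5%, 38.2% and 74.2%. Motifs were searched on both strands, and a match is a description of the letters only.

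Depth was 48.8 to 61.3 M reads per library, and 20427 to 21059 genes were detected. Apela had 5.8 to 25.9 normalized counts in NEO-IN and 50.6 to 107 in NEO-OUT, against 1082 to 2004 in wild-type, so all knockout libraries fit their labels. NEO-OUT 9 stood apart by macrophage genes, whose summed normalized count was 4552 there, 3685 of it from Lyz2, against 286 to 594 in the other 14 libraries. Y-linked genes summed to at most 2.08 in wild-type, and ran from 0 to 8722 in NEO-IN and from 0 to 8287 in NEO-OUT. By this RNA no wild-type embryo was male, while each knockout strain held embryos with and without it. Sex was thus unbalanced in each comparison with wild-type. Because the embryos were sequenced whole, fewer cells of a type and less RNA per cell cannot be told apart, and separate cultures, litters or days are not stated, so p-values measure the spread between these embryos.

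The replication genes were all abundant. Per kilobase of the longest coding transcript, the level in wild-type embryos ran from 429 normalized counts for Gins3 to 10140 for Pcna, a range of 23.6-fold. The 6 MCM2-7 subunits, which assemble as a ring with 1 copy of each, lay close together at 6517 to 9437 normalized counts per kilobase, a range of 1.45-fold, and just below Pcna. On this length Mcm3 (9437 ± 353, SD, n = 3), Mcm5 (9419 ± 303) and Mcm7 (9245 ± 359) lay within the spread between embryos, and Mcm6 was lowest (6517 ± 183). That closeness depends on the length used. Per kilobase of all merged exons Mcm3 had 7624 ± 285, Mcm5 7976 ± 256 and Mcm7 6187 ± 240. Mcm7 was then lower than both beyond that spread, and Mcm2 was lowest of the 6 (4322 ± 105). The 3 subunits of replication protein A, another complex with equal parts, spanned 2656 to 3023 normalized counts per kilobase of the longest coding transcript, or 1.14-fold. Per kilobase of all merged exons they lay further apart, with Rpa1 at 2752 ± 40.5, Rpa2 at 1804 ± 19.1 and Rpa3 at 1566 ± 231 (SD, n = 3). The GINS complex did not show equal levels per kilobase of the longest coding transcript. Its values were 429 ± 9.60 for Gins3, 1129 ± 32.5 for Gins2, 1517 ± 119 for Gins1 and 2808 ± 15.7 for Gins4 (SD, n = 3). Per kilobase of all merged exons Gins1 (1088 ± 85.0) and Gins2 (1075 ± 30.9) lay within the spread between embryos. Gins3 (399 ± 8.93) and Gins4 (2808 ± 15.7) still stood apart on that length. Per kilobase of the longest coding transcript Lig1 (4651 ± 186) stood below the MCM subunits. At the low end of that scale, above Gins3, stood the kinase Cdc7 (623 ± 22.7) and the catalytic subunit of polymerase alpha, Pola1 (685 ± 15.9). The length of all merged exons in place of the longest coding transcript narrowed the range over the list (399 to 7976) and widened that over MCM2-7 to 1.85-fold, with Gins3 again lowest and Mcm5 highest.

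**Figure D1:**
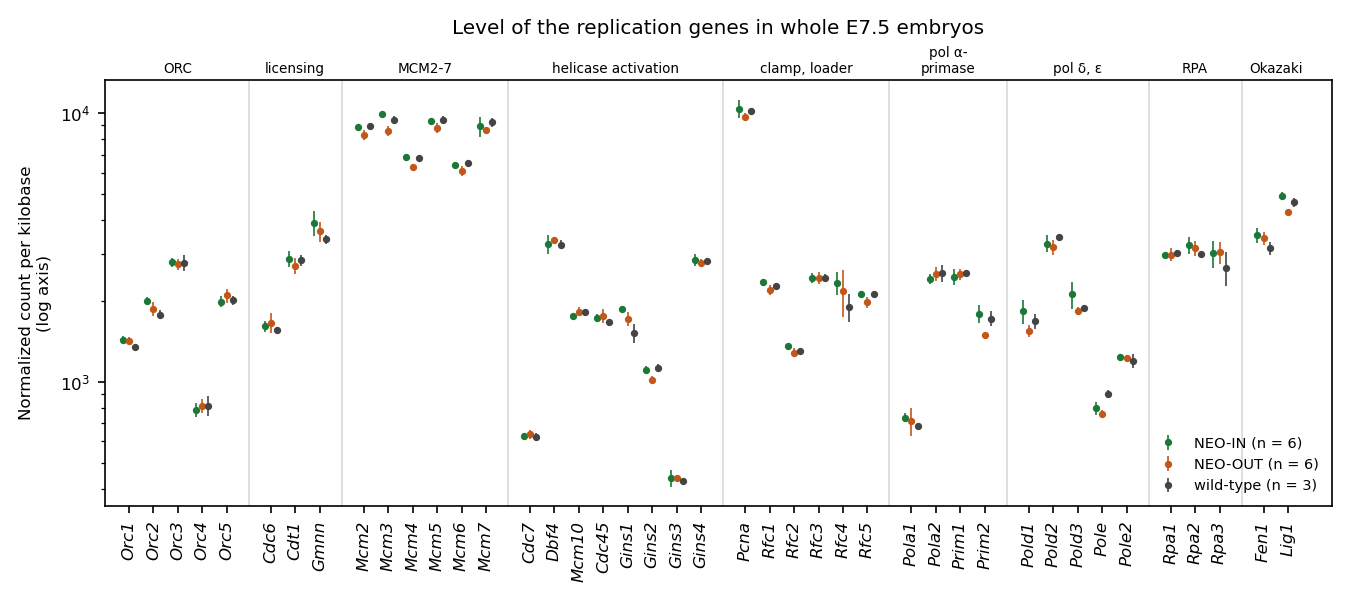
Level of each replication gene, as normalized count per kilobase of the longest coding transcript (log axis), in NEO-IN (n = 6), NEO-OUT (n = 6) and wild-type (n = 3) embryos; points are means and bars are SD. The MCM2-7 subunits and Pcna stand above the other genes, and the 3 groups lie close together for nearly every gene.

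Differences between the groups were small throughout. Each gene was tested with limma on log2(normalized count + 1) over all 16430 genes, and a gene with a Benjamini-Hochberg adjusted p under 0.05 is called; fold changes are on that log2 scale. Unless another fit is named, called or not called refers to this fit of all 15 libraries. In NEO-IN versus wild-type 1 replication gene was called, Gins1, and it was higher; 2.98% of all genes were called. In NEO-OUT versus wild-type 3 were called, Mcm3, Gins2 and Pole, and all were lower; 6.35% of all genes were called in either direction and 3.01% were called lower. In the mean of both strain effects (Apela KO versus wild-type) Gins1 was called higher and Pole lower, beside 2.83% of all genes. NEO-IN versus NEO-OUT gave the most calls: 7 of the 42 genes were higher and 0 lower, which is 16.7% of the list, beside 13.3% of all genes in either direction and 6.74% called higher. The share of the list called was 2.38% in NEO-IN, 7.14% in NEO-OUT and 4.76% in the mean of both strains against wild-type, close to the share of all genes in each. In NEO-IN versus NEO-OUT 15 of the 42 genes had an unadjusted p under 0.05, beside 4569 of 16430 genes in either direction. All 15 had a positive fold change. Of the 42 genes 30 had a positive fold change there, beside 8238 of 16430 genes. Genes measured in the same embryos are not independent, so these counts are a description only. edgeR called 7 and DESeq2 10 of the 42 genes higher and 0 lower, beside 13.1% and 16.4% of all genes in either direction.

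Over the 42 genes the median log2 fold change was 0.02 for NEO-IN and -0.02 for NEO-OUT against wild-type, and 0.05 for NEO-IN against NEO-OUT; the median of all genes tested was 0.00 in each. Leaving out 1 library gave medians of 0.018 to 0.040 for NEO-IN (highest without wild-type 2) and -0.027 to -0.006 for NEO-OUT (nearest 0 without NEO-OUT 12), and a covariate for Y-linked RNA gave 0.044 and 0.001. The largest absolute log2 fold change was 0.30 in NEO-IN and 0.25 in NEO-OUT against wild-type, and 0.26 between the strains. The 95% interval of the log2 fold change stayed within 0.5 on either side of 0 for all 42 genes when NEO-OUT was set against wild-type or NEO-IN against NEO-OUT, and for 41 genes when NEO-IN was set against wild-type. The exception was Rfc4, with an upper bound of 0.58. Both strains were set against the same 3 wild-type embryos, so the comparisons with wild-type are not independent of each other.

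**Figure D2:**
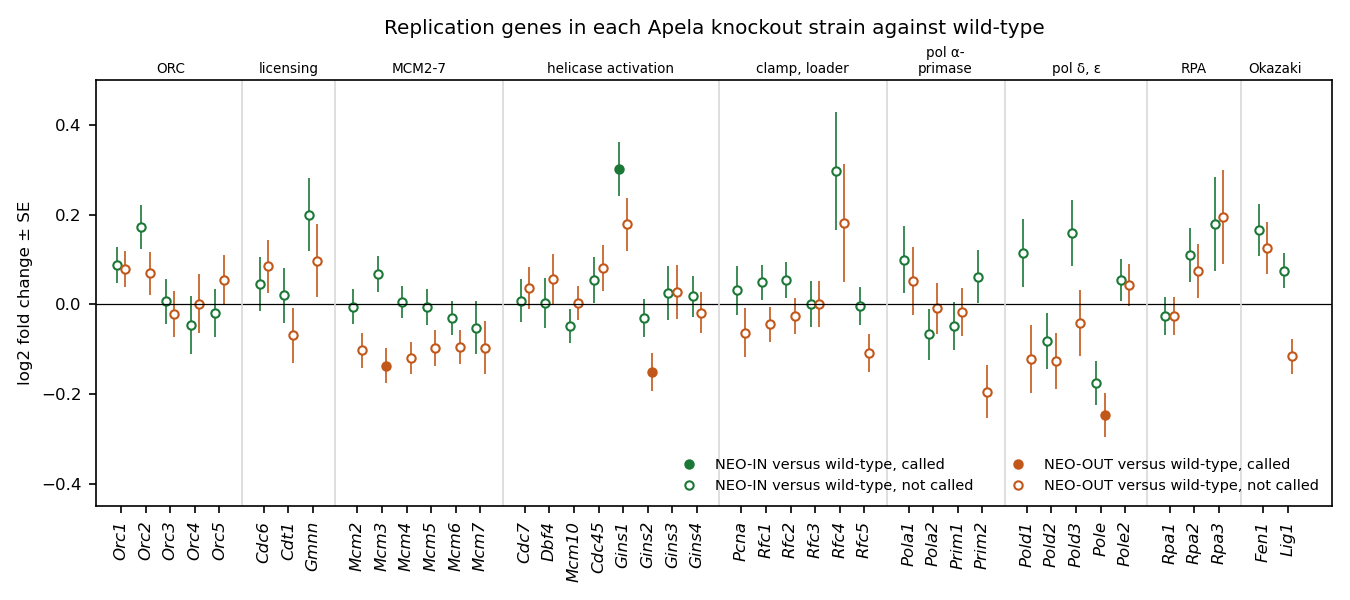
Log2 fold change (points) with its standard error (bars) of each replication gene for NEO-IN and for NEO-OUT, each against wild-type, grouped by complex; filled points are called by limma. Gins1 in NEO-IN and Mcm3, Gins2 and Pole in NEO-OUT are filled, and the 6 MCM2-7 genes lie below 0 in NEO-OUT.

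Of the origin recognition complex, which marks the sites where replication can begin, none of the 5 listed subunits was called in any comparison. In NEO-IN versus wild-type 2 (Orc1 and Orc2) had an unadjusted p under 0.05, beside 2954 of 16430 genes. Orc2 had the smallest p. Its normalized count was 6922, 7129 and 7481 (lowest, median, highest) in NEO-IN and 6264, 6608 and 7385 in NEO-OUT, against 6554, 6354 and 6080 in wild-type. All NEO-IN embryos lay above all wild-type embryos, while NEO-OUT overlapped both other groups. The log2 fold change in NEO-IN versus wild-type was 0.17 (SE 0.05, limma adjusted p = 0.065). It was called without NEO-OUT 9 (limma adjusted p = 0.0241), with only the compared groups in the fit (limma adjusted p = 0.0496) and by DESeq2 (adjusted p = 0.0282). Exons of Orc2 share 1150 bases with Nif3l1 on the other strand.

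Of the licensing factors, Cdc6 and Cdt1 load the helicase and geminin (Gmnn) inhibits Cdt1. None of the 3 was called in the fit of all libraries. Gmnn had 3881, 4338 and 5147 normalized counts in NEO-IN and 3698, 4042 and 4729 in NEO-OUT, against 3984, 3762 and 3704 in wild-type. The groups overlapped, with NEO-IN 1 highest and NEO-OUT 8 lowest, and the log2 fold change in NEO-IN versus wild-type was 0.20 (SE 0.08, limma adjusted p = 0.201). In a fit of only NEO-IN 1 to 3, the NEO-IN embryos with the highest Gmnn values, and wild-type 1 to 3, it was 0.32 and was called (limma adjusted p = 0.0273). Log2 fold changes of Cdc6 were 0.05 in NEO-IN and 0.09 in NEO-OUT against wild-type, and those of Cdt1 were 0.02 and -0.07.

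The subunits of the MCM2-7 helicase, which unwinds the DNA, leaned the same way between the strains. All 6 had a positive log2 fold change in NEO-IN versus NEO-OUT (0.04 to 0.20), 4 of them with an unadjusted p under 0.05 and 2 called, Mcm3 and Mcm4. Of all 16430 genes 8238 had a positive log2 fold change, 4569 had such a p in either direction and 13.3% were called. Against wild-type all 6 were negative in NEO-OUT (-0.14 to -0.09), 5 with an unadjusted p under 0.05 and Mcm3 called, whereas in NEO-IN 2 were positive and 4 negative (-0.05 to 0.07), with none called and none with an unadjusted p under 0.05. Such a p was found, in either direction, for 3754 of all genes in NEO-OUT and 2954 in NEO-IN against wild-type. A negative log2 fold change was found for 8292 of all genes in NEO-OUT versus wild-type. The 6 genes lie on 5 chromosomes. All 6 were measured in the same embryos, so their directions are not independent of each other.

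Mcm3 (chr1:20802968-20820312, minus strand, GRCm38), whose promoter is printed above, had 28810, 30186 and 30627 normalized counts in NEO-IN and 24702, 25714 and 27911 in NEO-OUT, against 27700, 29785 and 28326 in wild-type. All 6 NEO-IN embryos lay above all 6 NEO-OUT embryos, and wild-type overlapped both, with 5 of the 6 NEO-OUT embryos below it. NEO-IN averaged 29968 ± 636 and NEO-OUT 26030 ± 1081 (SD, n = 6 each), against 28604 ± 1070 in wild-type (SD, n = 3). NEO-IN differed from NEO-OUT by 0.20 on the log2 scale (SE 0.03, limma adjusted p = 0.000598), and the log2 fold change was -0.14 in NEO-OUT versus wild-type (SE 0.04, limma adjusted p = 0.0479). The first call held in every alternative tried, and the second was lost in 13 of the 15 limma fits without 1 library, at up to an adjusted p of 0.22. The second was also lost in 6 of 11 other alternatives, among them a covariate for Y-linked RNA (limma adjusted p = 0.0807).

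Mcm4 (chr16:15623897-15637400, minus strand) had 23748, 24496 and 25619 normalized counts in NEO-IN and 21730, 22474 and 23347 in NEO-OUT, against 24372, 24580 and 24512 in wild-type. NEO-OUT lay below both other groups without overlap, and the wild-type embryos sat in the middle of NEO-IN. NEO-IN exceeded NEO-OUT by 0.12 on the log2 scale (SE 0.03, limma adjusted p = 0.0097), and the log2 fold change was -0.12 in NEO-OUT versus wild-type (SE 0.04, limma adjusted p = 0.057), which was not called. The first held in every alternative tried. Mcm2 and Mcm5, with log2 fold changes of 0.10 and 0.09 between the strains, were not called either (limma adjusted p = 0.0524 and 0.0781), nor were Mcm6 (0.06) and Mcm7 (0.04). Of the 6, Mcm7 varied most within NEO-IN, at 23069 in NEO-IN 5 and 29620 in NEO-IN 2.

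Averaged over the 6 MCM2-7 genes, the log2 level centred on all libraries ran from 0.00 to 0.09 in NEO-IN and from -0.13 to 0.00 in NEO-OUT, against 0.04 to 0.06 in wild-type. The lowest embryos were NEO-OUT 12 at -0.13 and NEO-OUT 8 at -0.09, and NEO-OUT 7 met the lowest NEO-IN embryo at 0.00. The same average over all 42 genes spanned 0.01 to 0.05 in NEO-IN and -0.06 to 0.01 in NEO-OUT, against -0.03 to 0.00 in wild-type.

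**Figure D3:**
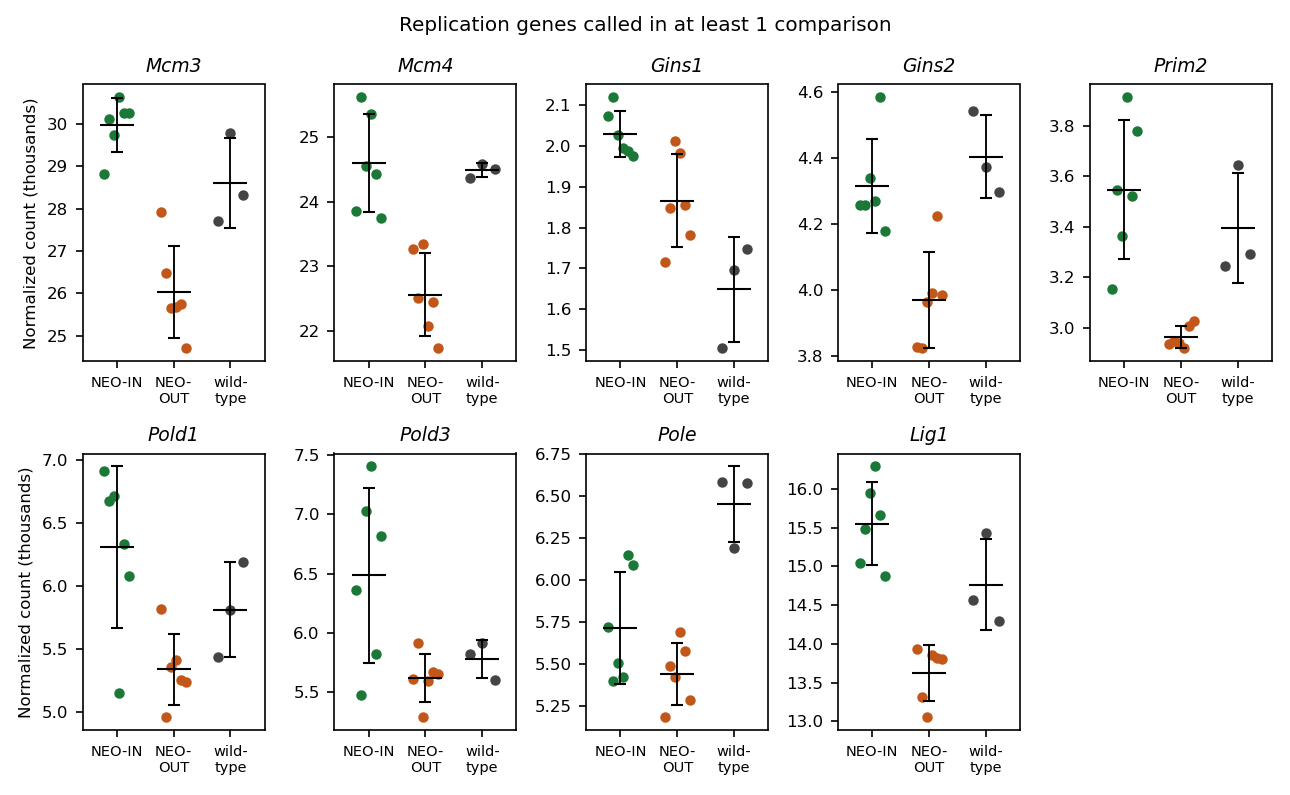
Normalized count of the 9 replication genes called in at least 1 comparison, with a point per embryo, the mean as a line and SD as bars, for NEO-IN (n = 6), NEO-OUT (n = 6) and wild-type (n = 3); vertical axes do not start at 0. NEO-IN lies wholly above NEO-OUT for Mcm3, Mcm4, Prim2 and Lig1, and both knockout strains lie below wild-type for Pole.

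Of the 8 genes of helicase activation, 2 subunits of the GINS complex were called: Gins1 higher in NEO-IN versus wild-type, and Gins2 lower in NEO-OUT versus wild-type and higher in NEO-IN versus NEO-OUT. Gins1 (chr2:150905400-150931280, plus strand) had 1975, 2011 and 2120 normalized counts in NEO-IN and 1715, 1851 and 2012 in NEO-OUT, against 1504, 1696 and 1748 in wild-type. All NEO-IN embryos lay above wild-type, and of NEO-OUT only embryo 7 fell within the wild-type range. Against wild-type it rose by 0.30 on the log2 scale in NEO-IN (SE 0.06, limma adjusted p = 0.00928); the log2 fold change was 0.18 in NEO-OUT (SE 0.06, limma adjusted p = 0.0827, not called) and 0.24 in the mean of both strains (SE 0.05, limma adjusted p = 0.0252). Wild-type 1 was the lowest embryo, and without it the limma adjusted p for NEO-IN was 0.0797. The call of the mean of both strains was lost without wild-type 1 or without wild-type 2, at up to a limma adjusted p of 0.191. It was also lost in 4 of 11 other alternatives, among them a covariate for Y-linked RNA (limma adjusted p = 0.0633). The difference between the strains, 0.12 on the log2 scale, was not called (limma adjusted p = 0.107).

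Gins2 (chr8:120578633-120589304, minus strand) had 4179, 4264 and 4585 normalized counts in NEO-IN and 3824, 3975 and 4224 in NEO-OUT, against 4543, 4373 and 4296 in wild-type. All NEO-OUT embryos lay below all wild-type embryos, and NEO-OUT 11 reached into the NEO-IN range. The strains differed by 0.12 on the log2 scale (NEO-IN over NEO-OUT, SE 0.03, limma adjusted p = 0.0293), and the log2 fold change was -0.15 in NEO-OUT versus wild-type (SE 0.04, limma adjusted p = 0.0438). These calls were lost in 4 and in 11 of the 15 limma fits without 1 library, at up to an adjusted p of 0.0714 and 0.183. Of 11 other alternatives the call between the strains was lost in 1 and the call against wild-type in 5. Among the latter was a covariate for Y-linked RNA (limma adjusted p = 0.0635). Of the 4097 exonic bases of Gins2, 2758 are shared with Gse1 on the other strand, and whether reads were counted by strand is not given in the sources used here. Gse1 itself had log2 fold changes of 0.03 between the strains and -0.12 in NEO-OUT versus wild-type and was not called.

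The other subunits, Gins3 and Gins4, had log2 fold changes of 0.03 and 0.02 in NEO-IN and 0.03 and -0.02 in NEO-OUT against wild-type. The kinase pair Cdc7 and Dbf4, the helicase component Cdc45 and the fork factor Mcm10 were not called in any comparison by limma, with log2 fold changes between -0.05 and 0.08 against wild-type in either strain. The Cdc45 value of wild-type 1 was deposited with a stray letter and was read as 3553; leaving that value out changed no call.

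Of the clamp and clamp loader genes, none of the 6 was called in the fit of all libraries. All 6 had a positive log2 fold change in NEO-IN versus NEO-OUT, and 4 had an unadjusted p under 0.05. Of all 16430 genes, 8238 had a positive log2 fold change there and 4569 had such a p in either direction. Here too the directions come from the same embryos and are not independent. The loader subunit Rfc5 had 5664, 5986 and 6070 normalized counts in NEO-IN and 5185, 5516 and 5918 in NEO-OUT, against 6021, 5907 and 5934 in wild-type. NEO-OUT 9 was the highest of its strain and reached the other groups, while the other NEO-OUT embryos apart from 10 lay below every NEO-IN embryo. The log2 fold change was 0.10 in NEO-IN versus NEO-OUT (SE 0.03, limma adjusted p = 0.0551). It was called without NEO-OUT 9 or NEO-IN 2 (limma adjusted p = 0.0186 and 0.0449), with only genes of a mean of 50 or more (limma adjusted p = 0.0459) and by DESeq2 (adjusted p = 0.0359).

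Pcna, the sliding clamp, cannot be read apart from Pcna-ps2, a pseudogene copy on chromosome 19 to which 3032 normalized counts were assigned on average. Pcna itself had 14637, 15410 and 17771 normalized counts in NEO-IN and 14025, 14802 and 15187 in NEO-OUT, against 15738, 15141 and 15297 in wild-type. NEO-IN 3, 4 and 6 held the 3 highest Pcna values (17771, 16647 and 15920) and the 3 lowest Pcna-ps2 values (1764, 1825 and 1453). In these 3 embryos Pcna-ps2 took 8.36% to 9.88% of the sum of both, and in the other 12 it took 14.9% to 22.4%. The sums ran from 17372 to 19535 in NEO-IN and from 17317 to 19056 in NEO-OUT, against 18145 to 19020 in wild-type, and thus overlapped fully. Pcna was not called, at a log2 fold change of 0.09 between the strains (limma adjusted p = 0.176), and reads of near-identical copies may have been split between them in counting, so its value is uncertain.

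**Figure D4:**
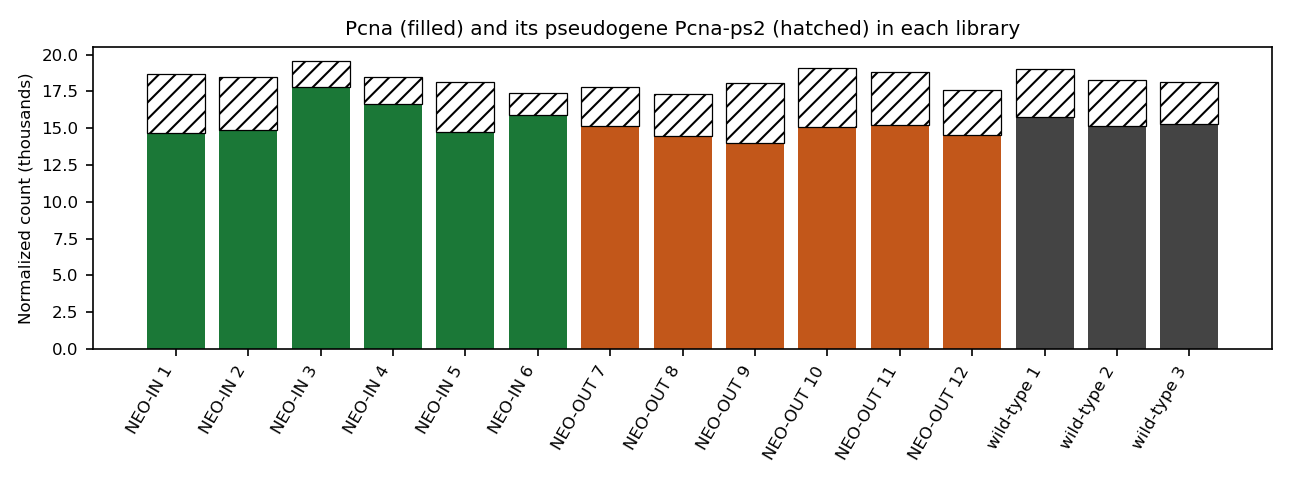
Normalized count of Pcna (filled) and of its copy Pcna-ps2 (hatched) stacked for each NEO-IN, NEO-OUT and wild-type embryo. The hatched share is smallest in NEO-IN 3, 4 and 6, while the summed height stays between 17317 and 19535.

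Of the primer-making polymerase alpha-primase, 1 of 4 genes was called. Prim2 (chr1:33453810-33669795, minus strand), the large primase subunit, had 3154, 3533 and 3913 normalized counts in NEO-IN and 2918, 2941 and 3026 in NEO-OUT, against 3245, 3645 and 3291 in wild-type. NEO-OUT lay below both other groups without overlap and was the tightest group, with an SD of 43.8 against 274 in NEO-IN and 219 in wild-type. The log2 fold change in NEO-IN versus NEO-OUT was 0.26 (SE 0.05, limma adjusted p = 0.00229), the largest among the 42 genes, and the call held in every alternative. In NEO-OUT versus wild-type it was -0.19 (SE 0.06, limma adjusted p = 0.0574), which was not called. Its partner Prim1, the catalytic primase subunit, had a log2 fold change of -0.03 in NEO-IN versus NEO-OUT and was not called, nor were Pola1 (0.05) and Pola2 (-0.06).

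Of the 5 genes of polymerases delta and epsilon, 3 were called, Pole against wild-type and Pold1 and Pold3 between the strains. Pole (chr5:110286306-110337474, plus strand), the catalytic subunit of the leading-strand polymerase epsilon, had 5401, 5615 and 6149 normalized counts in NEO-IN and 5181, 5454 and 5689 in NEO-OUT, against 6584, 6188 and 6580 in wild-type. All 12 knockout embryos lay below all 3 wild-type embryos, and the 2 strains overlapped. Log2 fold changes against wild-type were -0.18 in NEO-IN (SE 0.05, limma adjusted p = 0.0616, not called), -0.25 in NEO-OUT (SE 0.05, limma adjusted p = 0.00765) and -0.21 in the mean of both strains (SE 0.04, limma adjusted p = 0.0185). The NEO-OUT call held in every alternative tried, at a limma adjusted p of up to 0.0492, and the call of the mean was lost without wild-type 1 or 3, at up to an adjusted p of 0.111. Its accessory subunit Pole2 had log2 fold changes of 0.05 and 0.04 in NEO-IN and NEO-OUT against wild-type.

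Pold1 (chr7:44532746-44548849, minus strand), the catalytic subunit of the lagging-strand polymerase delta, had 5146, 6504 and 6917 normalized counts in NEO-IN and 4954, 5304 and 5816 in NEO-OUT, against 5436, 5807 and 6191 in wild-type. NEO-IN 4 fell within the NEO-OUT range, and the other 5 NEO-IN embryos lay above all NEO-OUT embryos. NEO-IN exceeded NEO-OUT by 0.24 on the log2 scale (SE 0.06, limma adjusted p = 0.0181), and the call held in every alternative. Pold3, an accessory subunit, had 5477, 6590 and 7409 normalized counts in NEO-IN and 5286, 5631 and 5916 in NEO-OUT, against 5824, 5913 and 5604 in wild-type. NEO-IN 2 and 5 lay within the NEO-OUT range and the other 4 above it. On the log2 scale NEO-IN was 0.20 higher than NEO-OUT (SE 0.06, limma adjusted p = 0.0362), a call lost in 9 of the 15 limma fits without 1 library, at up to an adjusted p of 0.079. Pold2 had a log2 fold change of 0.04 there.

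Replication protein A coats the exposed single strands, and none of its 3 subunits was called. Rpa3 had 1630, 2051 and 2323 normalized counts in NEO-IN and 1811, 2041 and 2279 in NEO-OUT, against 2069, 1713 and 1557 in wild-type. All groups overlapped, and the log2 fold change in the mean of both strains was 0.19 (SE 0.10, limma adjusted p = 0.311). Rpa1, the largest subunit, differed least, at -0.03 in either strain against wild-type.

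In Okazaki fragment maturation the ligase was called and the flap endonuclease was not. Lig1 (chr7:13277283-13311433, plus strand), which seals the nicks, had 14875, 15573 and 16295 normalized counts in NEO-IN and 13049, 13809 and 13932 in NEO-OUT, against 14564, 15425 and 14299 in wild-type. NEO-OUT lay below both other groups without overlap. The log2 fold change in NEO-IN versus NEO-OUT was 0.19 (SE 0.03, limma adjusted p = 0.000936), and the call held in every alternative. In NEO-OUT versus wild-type it was -0.12 (SE 0.04, limma adjusted p = 0.0874). Fen1, which trims the flaps, had log2 fold changes of 0.17 in NEO-IN and 0.13 in NEO-OUT against wild-type (limma adjusted p = 0.141 and 0.206).

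From embryo to embryo the median spread of the replication genes was below that of genes in the same range of mean level. Those genes were not matched to the list by level within that range. The median within-group SD of the log2 level was 0.0695 over the 42 genes, against 0.0880 over 7418 genes in the same range of mean normalized count, and 12 of the 42 lay above that value. Mcm4 varied least (0.0392), followed by Orc1 (0.0426) and Mcm10 (0.0427), and Rfc4 varied most (0.216), more than 96.5% of genes in that range. Rfc4, a clamp loader subunit, had 2578, 2935 and 3473 normalized counts in NEO-IN and 2155, 2784 and 3627 in NEO-OUT, against 2735, 2405 and 2139 in wild-type. The spread within NEO-OUT thus covered nearly the whole range of the gene, with embryos 7 and 8 low and embryo 9 high. Next came Rpa3 (0.166) and Gmnn (0.127). NEO-OUT 8 and NEO-OUT 12 were each the lowest of all 15 embryos for 7 genes, and NEO-IN 4 and NEO-IN 1 were the highest for 8 and 7.

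Genes that work beside this machinery were counted in the same way, from lists that were also made with earlier results in view. For these and the tissue markers the background is again 2.98% of all genes called in NEO-IN, 6.35% in NEO-OUT and 2.83% in the mean of both strains against wild-type, and 13.3% (6.74% higher) in NEO-IN versus NEO-OUT. Of 24 other fork and origin factors, 3 were called higher and 2 lower in NEO-IN versus NEO-OUT. The ribonuclease subunit Rnaseh2b was higher, by 0.26 on the log2 scale (limma adjusted p = 0.000671). The MCM relative Mcm8 was lower, at -0.40 (SE 0.07, limma adjusted p = 0.00227). Mcm8 had 1708 to 2396 normalized counts in NEO-IN and 2359 to 2999 in NEO-OUT, against 2225 to 2584 in wild-type, the opposite direction to the MCM2-7 subunits. Orc6, the remaining origin recognition subunit, was called higher than in wild-type in NEO-OUT (0.31, limma adjusted p = 0.0194) and in the mean of both strains (0.28, limma adjusted p = 0.031). It had 5601 to 7186 normalized counts in NEO-IN and 5850 to 7329 in NEO-OUT, against 5093 to 5401 in wild-type, so all knockout embryos lay above wild-type.

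Of 9 genes of chromatin assembly at the fork, 3 were called higher and none lower in NEO-IN versus NEO-OUT, with a list median of 0.08 on the log2 scale beside 0.00 for all genes. They were the histone chaperones Nasp (0.22) and Chaf1b (0.23), with SE 0.04 and limma adjusted p = 0.00215 and 0.00242, and the maintenance methylation factor Uhrf1 (0.13, limma adjusted p = 0.0268). Chaf1b was also called lower in NEO-OUT versus wild-type (-0.27, SE 0.05, limma adjusted p = 0.00684). Of 19 genes of nucleotide synthesis, only Rrm1, the large subunit of ribonucleotide reductase, was called between the strains (0.24, SE 0.04, limma adjusted p = 0.00111). Rrm1 was called higher in NEO-IN versus wild-type as well (0.23, SE 0.05, limma adjusted p = 0.0178), and Tyms, which makes thymidylate, in NEO-OUT versus wild-type (0.23, SE 0.06, limma adjusted p = 0.0225).

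Among 22 regulators of the step into S phase, 2 were called higher and 2 lower in NEO-IN versus NEO-OUT. The kinase Cdk6 (0.70, SE 0.18, limma adjusted p = 0.0157) and cyclin D1, Ccnd1 (0.29, SE 0.07, limma adjusted p = 0.0173), were higher. The retinoblastoma gene Rb1 (-0.76, SE 0.15, limma adjusted p = 0.0025) and cyclin E2, Ccne2 (-0.25, SE 0.06, limma adjusted p = 0.012), were lower. Rb1 had 212 to 399 normalized counts in NEO-IN and 464 to 598 in NEO-OUT, against 388 to 547 in wild-type, without overlap between the strains. In NEO-OUT against wild-type, Cdk6 (-0.83) and Ccnd1 (-0.34) were called lower (limma adjusted p = 0.0312 and 0.0326). Rbl2, a relative of Rb1, was called higher there (0.72, SE 0.14, limma adjusted p = 0.00734).

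Of 24 mitotic genes 1 was called higher (Ccnb2, 0.11) and 1 lower (Cenpf, -0.19) between the strains. Against wild-type none was called by limma; the kinetochore gene Ndc80 had the smallest p, with log2 fold changes of 0.19 in NEO-IN and 0.21 in NEO-OUT (limma adjusted p = 0.134 and 0.0683). Of 8 replication checkpoint genes tested none was called by limma in any comparison, and the smallest p belonged to the clamp subunit Rad9a in NEO-OUT versus wild-type (-0.17, limma adjusted p = 0.0946). The averages over the mitotic list were -0.06 to 0.06 in NEO-IN and -0.06 to 0.07 in NEO-OUT, against -0.07 to 0.03 in wild-type, and overlapped fully. Several targets of the stress-activated factor p53 were higher in NEO-OUT, the strain with the lower MCM2-7 level. Of 13 listed, 7 were called lower in NEO-IN versus NEO-OUT. Against wild-type 1 (Zmat3) was called higher in NEO-IN and 7 in NEO-OUT. Ccng1, a cyclin that p53 induces, had a log2 fold change of -0.62 in NEO-IN versus NEO-OUT (SE 0.08, limma adjusted p = 7.14e-05). The average over the list was -0.15 to -0.07 in NEO-IN and 0.08 to 0.29 in NEO-OUT, against -0.22 to -0.09 in wild-type. Whether this has a part in the replication gene values was not tested.

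**Figure D5:**
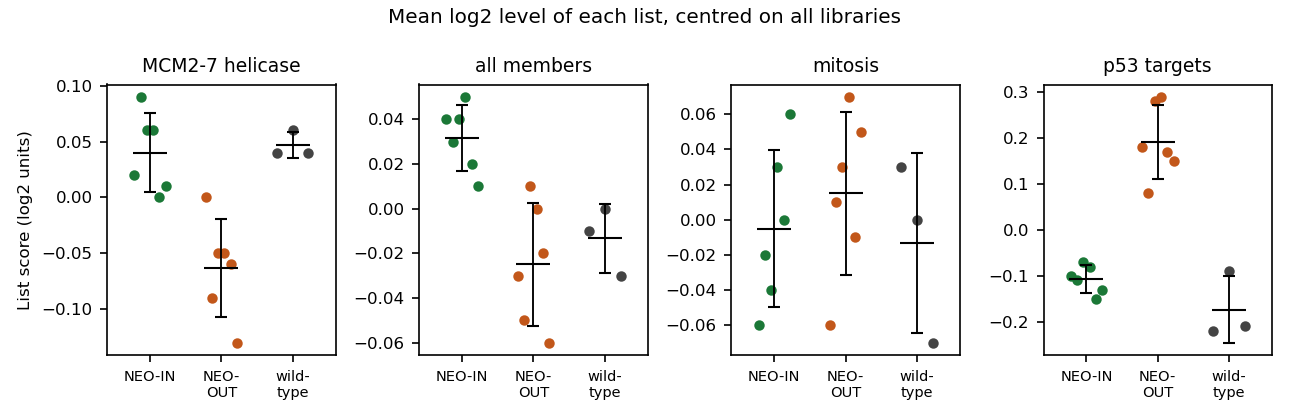
Mean log2 level of 4 gene lists, centred on all libraries, with a point per embryo, the mean as a line and SD as bars, in NEO-IN (n = 6), NEO-OUT (n = 6) and wild-type (n = 3). NEO-OUT is low for MCM2-7 (-0.13 to 0.00) and high for p53 targets (0.08 to 0.29), and the groups overlap for the mitotic genes.

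Tissue markers also differed between the strains. Of 12 visceral endoderm markers, 4 were called lower in NEO-IN versus NEO-OUT and 2 higher in NEO-OUT versus wild-type, and their summed normalized count was 529785 to 629733 in NEO-IN and 579219 to 707501 in NEO-OUT, against 591901 to 615130 in wild-type. Of 12 trophoblast markers tested, 2 (Esrrb and Eomes) were called lower in NEO-IN versus NEO-OUT. There 5 of the 12 had a positive log2 fold change, with a list median of -0.03. Against wild-type Rhox9 was called higher in NEO-IN (log2 fold change 1.18) and in the mean of both strains (1.02), and Esrrb higher in NEO-OUT (0.35). Positive log2 fold changes against wild-type were found for 6 of the 12 in NEO-IN and 9 in NEO-OUT. The 13 listed trophoblast markers had sums of 30027 to 38308 in NEO-IN and 31615 to 40796 in NEO-OUT, against 33097 to 38246 in wild-type. Tpbpa had a mean under 10, and Hand1 is also on the mesoderm list. Of 8 primitive blood markers 2 were called lower in NEO-IN versus NEO-OUT, with sums of 3630 to 7068 in NEO-IN and 2802 to 9427 in NEO-OUT, against 3500.0 to 3895 in wild-type. Between the strains 4 of these 8 had a positive log2 fold change. Of 8 mesoderm markers Gata4 was called lower in NEO-IN versus NEO-OUT and higher in NEO-OUT versus wild-type. Gata4 was the only 1 of the 8 with a positive log2 fold change in NEO-OUT versus wild-type (list median -0.12). In NEO-IN versus wild-type 0 of the 8 were positive (list median -0.24). The sums were 33123 to 40318 in NEO-IN and 32903 to 42816 in NEO-OUT, against 41381 to 43245 in wild-type, so all NEO-IN sums lay below wild-type. Of 8 parietal endoderm markers Plat was called higher in NEO-IN versus NEO-OUT, and the sums overlapped. Of 6 maternal decidua markers tested 2, Dcn and Cryab, were called higher there, with sums of 994 to 1545 in NEO-IN and 857 to 1201 in NEO-OUT, against 1121 to 1413 in wild-type; Prl3c1 was at 0 in all libraries. None of the 5 epiblast markers was called by limma in any comparison, with sums of 53488 to 69807 in NEO-IN and 53138 to 79087 in NEO-OUT, against 64104 to 72692 in wild-type. The part of these tissues in the replication gene values was not tested beyond the following fits. With a trophoblast score as a covariate 6 replication genes were called in NEO-IN versus NEO-OUT and 1 in NEO-OUT versus wild-type, and none in NEO-IN or in the mean of both strains against wild-type. In that fit 11.4%, 2.71%, 0.834% and 0.651% of all genes were called in these 4 comparisons, in that order, each a lower share than without the covariate. A covariate for Y-linked RNA left 7 called between the strains, beside 13.1% of all genes in that fit. Without NEO-OUT 9, the embryo with the macrophage RNA, 9 were called between the strains, beside 13.7% of all genes. The median log2 fold change of the 42 genes was then 0.07.

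The genes are spread over 14 chromosomes, and 5 of them share chromosome 8 with Apela, at 10.1 (Mcm5), 30.6 (Gins3), 41.8 (Gins4), 55.6 (Gins2) and 57.5 Mb (Cdt1) from it. Of these, Gins2 was called, and the closest, Mcm5, was not. Within 5 Mb of the genes called in NEO-IN versus NEO-OUT, between 5.17% (Lig1) and 18.2% (Mcm3) of neighbouring genes were called, beside 13.3% of all genes. For Mcm3 these were 6 of 33 neighbours, 2 higher and 4 lower. Beside Gins2 and Orc2, exons of further listed genes overlap those of a gene on the other strand, and reads in these stretches may be shared. Examples are Lig1 (247 bases, Zswim9), Mcm7 (321 bases, Ap4m1), Rfc5 (499 bases, Wsb2), Rfc4 (194 bases, the more abundant Eif4a2), Orc4 (446 bases, Acvr2a), Cdc45 (209 bases, Ufd1) and Fen1 (130 bases, Tmem258, and 1909 bases, Gm10143, which had a mean of 2.85 normalized counts). Rfc2 shares 952 bases with Lat2 and Orc1 376 with Gm12743, both with a mean under 10.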

How the data were processed

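Stranded libraries were made from the polyadenylated RNA of each of 15 embryos, per the labels' protocols. The authors deposited a signal table of normalized counts, in which each library's gene counts stand divided by its size factor. Of tools, kallisto, STAR, featureCounts, Picard and DESeq2 appear in the submitters' processing notes, with the build mm10 and no roles or versions. Whole reads were recovered for 100% of values (within 0.01), and 76.9% to 79.1% of recovered counts from 1 to 20 were even, so independent fragments may be fewer than reads. Symbols and coordinates came from GENCODE on GRCm38 (98.6% of identifiers).

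Testing used limma 3.58.1 in R 4.3.3 with a mean-variance trend, in 1 fit of 3 groups. Values were log2(normalized count + 1) of the 16430 genes whose mean reached 10, with Benjamini-Hochberg adjustment; this scale understates changes of low genes. A list level is the mean of log2 values centred on all libraries. Values by embryo are given for called genes and for the gene with the smallest p in each complex, and also for Rfc4 and Pcna, added after their values were seen; from other lists up to 4 called genes are eligible. The genes and lists were chosen with earlier results of these data known. Alternatives changed the pseudocount, filter, scaling, libraries, covariates and tool (edgeR 4.0.16 and DESeq2 1.42.0 on recovered reads). Protein sequences were not used here. Figures were drawn with matplotlib 3.10.9.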

Additional observations from a re-analysis of the deposited data

Results flagged for a closer look

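For 7 replication genes the NEO-IN effect differed from the NEO-OUT effect by a direct test of the difference. Both effects use the same wild-type embryos, so this difference equals NEO-IN versus NEO-OUT. On the log2 scale it was 0.20 for Mcm3 (limma adjusted p = 0.000598), 0.12 for Mcm4 (0.0097) and 0.12 for Gins2 (0.0293). It was 0.26 for Prim2 (limma adjusted p = 0.00229), 0.24 for Pold1 (0.0181), 0.20 for Pold3 (0.0362) and 0.19 for Lig1 (0.000936). NEO-IN was the higher strain for each of the 7. None of 84 sets of 6 knockout embryos, 1 per gene and strain, held an embryo far from the others by Dixon's criterion; the largest gap was 0.603 of the range, against a limit of 0.625, and chance gives about 1 in 20.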

How the results depend on the processing

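In NEO-IN versus NEO-OUT the count of 7 called genes (13.3% of all genes called) moved between 5 and 10 under every alternative. It was 10 with DESeq2 (16.4%) and 5 without NEO-IN 3 (11.2%) or with a random effect for each run of 3 libraries (8.72%). A run here is 3 consecutive embryo numbers within a group. It was set by number alone and is not a recorded batch, which the labels do not give. The count did not follow the share throughout, at 8 without NEO-IN 2 (10.8%) and 6 with no filter (6.7%). Mcm3, Mcm4, Prim2, Pold1 and Lig1 kept their calls in each alternative. The median log2 fold change of the 42 genes, 0.046, ran from 0.041 to 0.066 without 1 library, the highest without NEO-OUT 9. In NEO-IN versus wild-type the count of 1 (2.98% of all genes called) was 3 with DESeq2 (5.77%), 2 with only the groups compared (2.47%), 0 with a trophoblast covariate (0.834%) and 0 to 2 without 1 library (0 without wild-type 1; 2 without NEO-IN 5, NEO-IN 6 or NEO-OUT 9). The median of 0.023 was 0.044 with a Y-linked covariate. In NEO-OUT versus wild-type the count of 3 (6.35% of all genes) was 6 with DESeq2 (10.2%) and 1 with no filter (2.99%), a Y-linked covariate (5.68%), a trophoblast covariate (2.71%) or runs of 3 libraries as a random block (3.23%). Without 1 library it was 1 to 5: 5 without NEO-OUT 7, and 1 without any 1 of wild-type 1 to 3, NEO-IN 2 or 3, or NEO-OUT 8, 10 or 12. For the mean of both strains the count of 2 (2.83% of all genes) was 1 with the knockouts as 1 group (1.07%), a Y-linked covariate (1.85%) or the random block (1.14%), 0 with a trophoblast covariate (0.651%) and 0 to 2 without 1 library (0 without wild-type 1, 1 without wild-type 2 or 3). The share of all genes called moved as well, and the causes were not tested.

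Wild-type and NEO-IN embryos share the numbers 1 to 3. With that number as a replicate block 3 genes (2.96% of all genes) were called, and 4 (3.30%) in the same 6 libraries without it, a fit chosen after seeing the data; Gmnn was among them, with a limma adjusted p of 0.024 with the block. Deviations of same-numbered embryos correlated at 0.0452, 0.0155 and 0.00275 over 16430 genes. With 3 embryos per group these values cannot show whether same-numbered embryos shared a litter or batch, which the labels do not give. Gins1 in NEO-IN versus wild-type had a limma adjusted p of 0.0549 with the block and 0.0934 with the trophoblast covariate. Alternatives were examined singly for 17 pairs of gene and comparison, and for Cdc45 only without the value with the stray letter. None of these turned in direction. The other listed genes were refitted for the counts and medians above, but their single values under the alternatives are not given here. Each comparison with wild-type is limited by only 3 wild-type embryos, which held almost no Y-linked RNA, unlike some embryos of each knockout strain. Depth limits little here, since all 42 genes are abundant.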
